A study of Mus musculus with 3 samples.

Results

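Matrix metalloproteinases are zinc-dependent proteases that cut collagens and other proteins outside the cell. The genes described here are 7 metalloproteinases (Mmp2, Mmp8, Mmp9, Mmp12, Mmp13, Mmp14 and Mmp19) and 3 tissue inhibitors of metalloproteinases (Timp1, Timp2 and Timp3), 10 of the 27179 genes in the deposited table. They were chosen by name, with earlier results of these data known, and matched through their gene identifiers. Most metalloproteinases are secreted as inactive proenzymes whose propeptide covers the zinc, and become active once that propeptide is cut off. The inhibitors bind the active enzyme, and Timp2 also links the membrane protease Mmp14 to the proenzyme of Mmp2. In bone marrow these enzymes are made by stromal cells, by bone-forming cells and by cells of the macrophage and granulocyte lineages.

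Messenger RNA was sequenced from 3 cultures of wild-type mouse bone marrow stromal cells, kept at 3% oxygen and treated for 3 days with extracellular vesicles from bone marrow plasma. The Ocn-EV culture received vesicles of CAGS-Snorkel mice crossed with Ocn-Cre, a driver active in mature osteoblasts, and the Prx1-EV culture those of CAGS-Snorkel mice crossed with Prx1-Cre, a driver of limb mesenchyme and its descendants. The All-EV culture, the control, received vesicles of wild-type mice. All donors were C57BL/6N mice aged 6 months, plasma was pooled from 5 of them (2 male, 3 female) per group, and vesicles were taken up on beads carrying an HA antibody. How that step captured vesicles of wild-type mice is not given in the labels. Each group is 1 library, and reads assigned to genes numbered 15558165 for All-EV, 14233978 for Ocn-EV and 17269204 for Prx1-EV. No difference below has a replicate check, and "higher" and "lower" compare single libraries. Levels are the normalised counts deposited by the authors, ratios are log2((a + 1)/(b + 1)), folds are plain ratios of levels, and ranges in brackets are exact 95% intervals from the recovered reads, which cover counting error only.

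The cultures held transcripts of several cell types. A macrophage list of 15 genes, all with reads in every library, summed to a level of 312640 in the control, 191292 in Ocn-EV and 173840 in Prx1-EV. Lyz2 held 140306, 51741 and 40548 of these sums, and Ctss 59782, 30924 and 33863. The median log2 ratio of the 15 genes to All-EV was 0.16 in Ocn-EV and 0.25 in Prx1-EV, so the sums do not stand for the typical marker. A stromal fibroblast list of 12 genes summed to 15122, 80994 and 53837 in the same order, with Lum at 0 reads in all 3 libraries. Col1a1 held 7861, 44981 and 30399 of these sums, and Col1a2 4596, 25448 and 16630. Osteoclast markers (9 genes) summed to 16164, 11445 and 13040, with Calcr and Dcstamp at 0 throughout. Osteoblast markers (9 genes) summed to 407, 2272 and 937, and endothelial markers (5 genes) to 696, 980 and 999. Of 11 neutrophil markers, Ly6g, Elane, Ltf and Retnlg had 0 reads in all libraries, and only Csf3r, which macrophages also express, reached a mean level of 50. In such bulk samples fewer cells of a type and less RNA per cell cannot be told apart.

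Of the proteases, 4 stood far lower in 2 of the cultures than in the third. Promoter sequences are given first as a description, and their part in these levels was not tested. The RefSeq table of GRCm38.p6, the build that mm10 names, held windows for 7 of the 10 genes. The 250 bases before the annotated start are given 5′ to 3′ for the 3 strongly lower genes with a window, which lie on chromosome 9, and for Timp3, which stood higher there. Capitals mark matches on either strand to TGANTCA (the AP-1 motif), TGTGGT (RUNX) and GGAAGT (ETS). All 4 genes are on the plus strand. Mmp12 has a pair of annotated starts, at positions 7344397 and 7347374. The window before the latter, which lies inside the gene, is shown because it holds an AP-1 match. The window before the start at the gene's 5′ end holds none. The bases just after the annotated Mmp8 start were not found in transcript sequences of that gene, while those of the other genes shown were.
Mmp13, chr9:7272264-7272513: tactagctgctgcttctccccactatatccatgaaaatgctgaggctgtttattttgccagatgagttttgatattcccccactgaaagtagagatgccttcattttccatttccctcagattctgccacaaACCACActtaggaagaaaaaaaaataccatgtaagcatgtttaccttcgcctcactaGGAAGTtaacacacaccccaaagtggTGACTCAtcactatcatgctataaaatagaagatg
Mmp12, chr9:7347124-7347373: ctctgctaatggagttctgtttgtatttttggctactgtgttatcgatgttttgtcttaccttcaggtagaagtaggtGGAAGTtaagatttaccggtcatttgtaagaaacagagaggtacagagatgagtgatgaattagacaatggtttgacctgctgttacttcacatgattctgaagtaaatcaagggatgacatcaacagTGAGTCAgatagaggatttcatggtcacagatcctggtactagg
Mmp8, chr9:7558179-7558428: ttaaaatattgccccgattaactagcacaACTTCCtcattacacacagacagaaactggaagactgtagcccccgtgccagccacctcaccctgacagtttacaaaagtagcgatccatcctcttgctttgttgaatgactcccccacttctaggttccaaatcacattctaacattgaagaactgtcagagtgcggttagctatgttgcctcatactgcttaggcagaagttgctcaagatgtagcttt
Timp3, chr10:86300162-86300411: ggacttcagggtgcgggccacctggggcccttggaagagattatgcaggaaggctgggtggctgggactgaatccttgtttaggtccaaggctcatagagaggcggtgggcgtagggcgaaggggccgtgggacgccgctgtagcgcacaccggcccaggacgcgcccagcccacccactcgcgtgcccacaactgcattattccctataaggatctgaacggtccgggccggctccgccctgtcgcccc

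The Mmp13 window held 1 match to each motif, with the AP-1 letters TGACTCA beginning 35 bases before the start and the RUNX letters 118 bases before it. In the Mmp12 window shown, TGAGTCA began 44 bases before the start. Its other window held 2 ETS matches and no AP-1 match. The Mmp8 window held 1 ETS match, and the Timp3 window, with a GC content of 65.6%, none of the 3 motifs. GC content was 40.4% in the Mmp13 window, 39.6% in the Mmp12 window shown and 44.8% in the Mmp8 window. It averaged 53.2% over all windows, so the windows shown also differ in base composition. Of the genes not shown, Mmp14 had 1 RUNX match, Timp1 had 1 ETS match and Timp2 had none. Among the 8 windows of the 7 genes, 2 held the AP-1 letters, 2 the RUNX letters and 5 the ETS letters. Of all 32851 windows of the same length in the table, 6.75% held the AP-1 letters, 14.0% the RUNX letters and 19.7% the ETS letters. A match is a run of letters and was not tested for binding.

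Mmp9 encodes gelatinase B, which cuts denatured collagen and collagen of basement membranes and is known from macrophages, neutrophils and osteoclasts. The gene lies at chr2:164940326-164955850 (mm10, as all positions here). Its level was 2865 in the control, 39.3 in Ocn-EV and 52.3 in Prx1-EV, from 2532, 38 and 60 reads. The All-EV culture stood far above both others. The log2 ratio was −6.15 (−6.69 to −5.73) for Ocn-EV against All-EV and −5.75 (−6.17 to −5.41) for Prx1-EV against All-EV. Of the 11067 genes whose level averaged at least 50 over the libraries (the tested genes), 3 had a lower ratio than Mmp9 in either of these comparisons. Mmp9 itself passed that filter only through its All-EV level. Lcn2, a secreted protein that binds Mmp9, was singled out after its values were seen, at 62 reads in the control, 2 in Ocn-EV and 9 in Prx1-EV.

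Mmp8 and Mmp13 are collagenases, enzymes able to cut intact fibrillar collagen. Mmp8 is best known as the collagenase of neutrophil granules, and Mmp13 as the main interstitial collagenase of mouse bone and cartilage. The level of Mmp8 (chr9:7558429-7568486) was 8978 in the control, 836 in Ocn-EV and 1008 in Prx1-EV. That of Mmp13 (chr9:7272514-7283333) was 19689 in the control, 2389 in Ocn-EV and 2817 in Prx1-EV. Both genes were highest with the control vesicles. Mmp8 was 10.7-fold lower in Ocn-EV than in All-EV (log2 −3.42, −3.53 to −3.32) and 8.91-fold lower in Prx1-EV (log2 −3.15, −3.25 to −3.07). Mmp13 was 8.24-fold lower in Ocn-EV (log2 −3.04, −3.11 to −2.98) and 6.99-fold lower in Prx1-EV (log2 −2.80, −2.86 to −2.75). Among neutrophil markers in the same libraries, S100a8 had 36, 7 and 3 reads and Mpo 0, 1 and 0, while Csf3r had 344, 811 and 1031 reads, with log2 ratios of 1.11 and 1.21. Their part in the Mmp8 level was not tested.

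Mmp12, the macrophage metalloelastase, was the most abundant of the 10 genes per kb of transcript in every culture. It lies at chr9:7344397-7360461. The level was 286208 in the control, 80047 in Ocn-EV and 87875 in Prx1-EV, which placed it 5th, 10th and 10th among all genes. It took 1.63% (1.62 to 1.63) of the gene-assigned reads in the control, 0.543% (0.539 to 0.547) for Ocn-EV and 0.583% (0.580 to 0.587) for Prx1-EV. The gene was therefore high in every culture and highest in All-EV. It was 3.58-fold lower in Ocn-EV than in All-EV (log2 −1.84, −1.85 to −1.83) and 3.26-fold lower in Prx1-EV (log2 −1.70, −1.71 to −1.69).

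Among macrophage markers the ratios differed in sign, and their part in the lower protease levels was not tested. In Ocn-EV against All-EV, 3 of the 15 markers were at least 2-fold higher and 2 were at least 2-fold lower (median log2 0.16). In Prx1-EV against All-EV, 1 was higher and 2 were lower by that amount (median 0.25). Of all tested genes, 6.27% were at least 2-fold higher and 4.20% lower in Ocn-EV, and 5.12% and 3.66% in Prx1-EV. Lyz2, the macrophage lysozyme, had log2 ratios of −1.44 and −1.79 and the integrin Itgam −1.42 and −1.60, whereas the receptor kinase Mertk had 1.34 in each. Of 5 tested osteoclast markers, 3 were at least 2-fold lower in Ocn-EV and 2 in Prx1-EV, among them the bone-resorbing protease Ctsk at −2.31 and −2.11. Of the other tested ones, Nfatc1, a transcription factor of osteoclast formation, stood at 0.79 and 0.66, and the proton pump subunit gene Atp6v0d2 at −0.06 and 0.15.

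**Figure D1:**
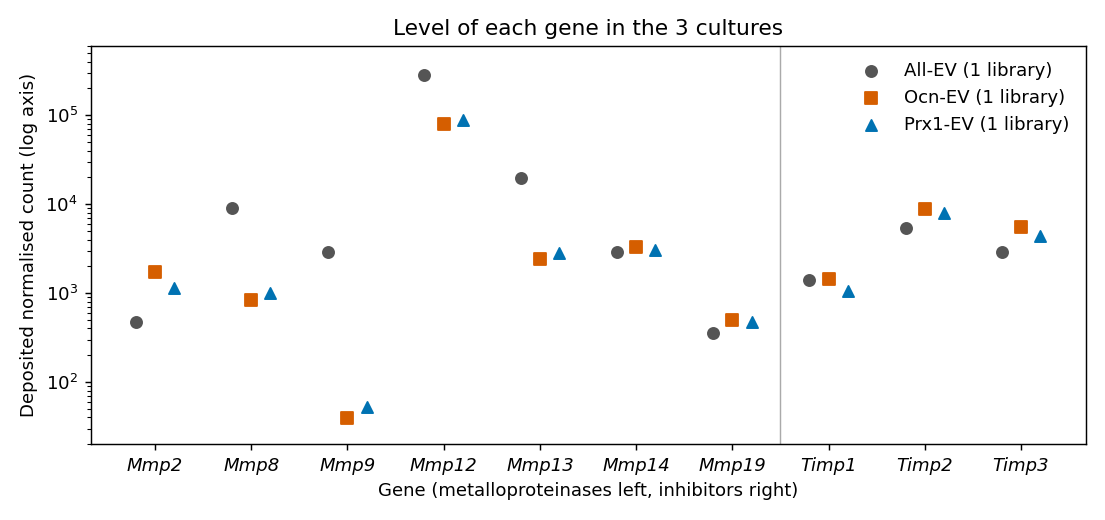
Deposited normalised count (log axis) of the 10 genes in each culture, 1 point per library. Mmp8, Mmp9, Mmp12 and Mmp13 are highest in All-EV, whereas Mmp2, Mmp14, Mmp19, Timp2 and Timp3 are lowest there.

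Mmp2, gelatinase A, is made by fibroblasts and other stromal cells. Of the 7 proteases it alone was at least 2-fold higher in Ocn-EV and Prx1-EV than in All-EV. Mmp14 and Mmp19 were also lowest in All-EV, by less than 2-fold. The gene lies at chr8:92827290-92853421. Its level was 476 in the control, 1744 in Ocn-EV and 1138 in Prx1-EV. Here All-EV was lowest and Ocn-EV highest. Mmp2 was 3.66-fold higher in Ocn-EV than in All-EV (log2 1.87, 1.72 to 2.03) and 2.39-fold higher in Prx1-EV (log2 1.25, 1.10 to 1.42). Most tested genes of the stromal list stood higher in the same libraries. Of its 8 tested genes, 7 were at least 2-fold higher in Ocn-EV (6.27% of all tested genes) and 5 in Prx1-EV (5.12%). Dcn of that list, below the filter, went the other way, at 23 reads in the control and 3 in each of Ocn-EV and Prx1-EV. Col1a1 of that list had log2 ratios of 2.52 and 1.95. What the stromal markers contribute to the Mmp2 level was not tested.

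Mmp14, a membrane-bound metalloproteinase that cuts collagen at the cell surface and activates Mmp2, hardly differed between cultures. The gene lies at chr14:54431598-54442456, and its level was 2879 in the control, 3277 in Ocn-EV and 3032 in Prx1-EV. Its log2 ratio to All-EV was 0.19 (0.11 to 0.26) for Ocn-EV and 0.07 (0.00068 to 0.15) for Prx1-EV. Mmp19, a secreted metalloproteinase at chr10:128790910-128800827, was the least abundant of the 10 genes per kb in All-EV, and its level there was 354 against 498 in Ocn-EV and 468 in Prx1-EV. Its log2 ratios to All-EV were 0.49 (0.28 to 0.70) and 0.40 (0.20 to 0.61). Neither gene reached 2-fold in any comparison.

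None of the 3 inhibitors reached 2-fold in any comparison on the deposited scale. Timp2, at chr11:118301061-118355411, had a level of 5432 in the control, 8729 in Ocn-EV and 8010 in Prx1-EV. Timp3, which stays bound to the matrix and also inhibits several ADAM and ADAMTS proteases, lies at chr10:86300412-86349505. Its level was 2921 in the control, 5522 in Ocn-EV and 4351 in Prx1-EV. Both were lowest with the control vesicles. The log2 ratios of Timp2 to All-EV were 0.68 (0.63 to 0.74) for Ocn-EV and 0.56 (0.51 to 0.61) for Prx1-EV. Those of Timp3 were 0.92 (0.85 to 0.99) and 0.57 (0.51 to 0.64). Setting libraries to equal totals of reads brought the median log2 ratio of all tested genes to 0.24 in Ocn-EV and 0.22 in Prx1-EV. The Timp3 ratios became 1.18 and 0.80. Timp3 then counted as at least 2-fold higher in Ocn-EV.

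Timp1, a soluble inhibitor that also binds the proenzyme of Mmp9, lies at chrX:20870166-20874737. Its level was 1399 in the control, 1424 in Ocn-EV and 1063 in Prx1-EV. Only the Prx1-EV culture stood apart. The log2 ratio was 0.03 (−0.09 to 0.14) for Ocn-EV against All-EV, an interval that holds 0, and −0.40 (−0.51 to −0.28) for Prx1-EV against All-EV. With equal totals they were 0.28 and −0.17.

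Whether reads were counted by strand is not stated by the labels, so reads of overlapping genes cannot be assigned with certainty. Timp1 overlaps Syn1, Timp2 overlaps Cep295nl, Timp3 overlaps Syn3 and Mmp19 overlaps Tmem198b. Mmp2 and Mmp8 overlap the long noncoding RNA genes Gm45472 and Gm31751, whose levels were not analysed here. The genes overlapping the inhibitors were low beside them, with Syn1 at 136, 80.8 and 106 in the order used above, Syn3 at 29.4, 39.3 and 27.9, and Cep295nl at 3.40, 23.8 and 15.7. Tmem198b stood nearer to its neighbour Mmp19, at 81.5, 141 and 141.

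**Figure D2:**
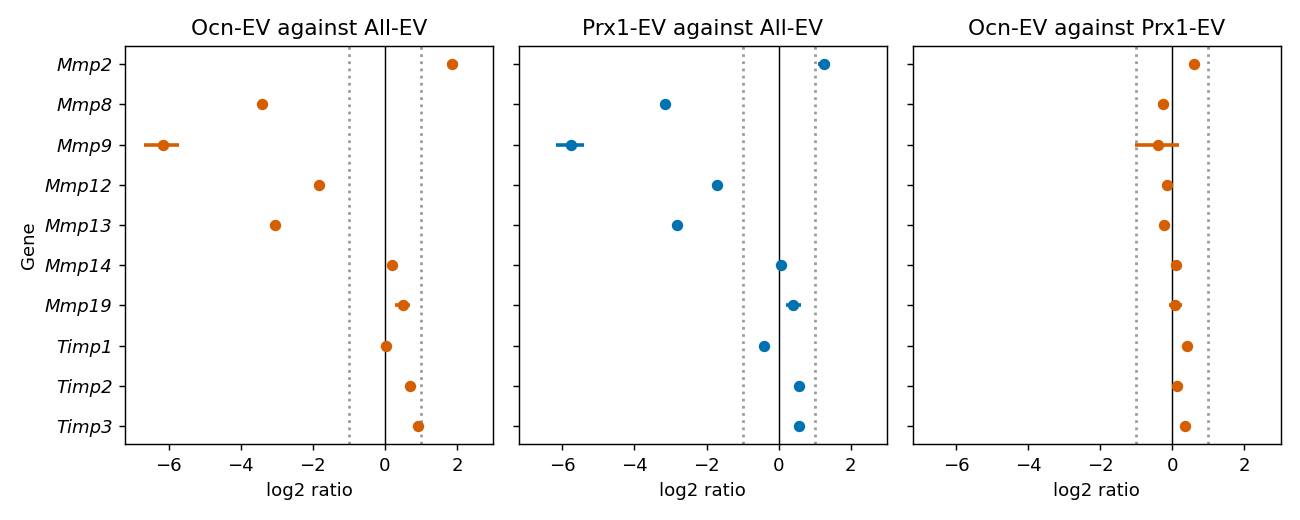
The log2 ratio of each gene (point) with its 95% counting interval (bar, often narrower than the point) in the 3 comparisons, with dotted lines at 2-fold. Mmp9 lies farthest from 0, at −6.15 and −5.75 against All-EV, and no gene passes 2-fold between Ocn-EV and Prx1-EV.

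All 10 genes had a mean level of at least 50 and entered the comparisons. Mmp9 passed this filter only through All-EV, at 2865 there against 39.3 in Ocn-EV and 52.3 in Prx1-EV. The list was chosen with earlier results of these data known, so the shares below describe it and do not test it. In Ocn-EV against All-EV, 4 of 10 were at least 2-fold lower (Mmp8, Mmp9, Mmp12 and Mmp13), where 4.20% of the 11067 tested genes were, and 1 of 10 (Mmp2) was at least 2-fold higher, where 6.27% of tested genes were. Past 2-fold either way were 10.5% of tested genes. In Prx1-EV against All-EV, 4 were lower (background 3.66%) and 1 was higher (background 5.12%, and 8.78% either way). Equal totals turned the share of higher genes among all those past 2-fold from 59.9% to 81.8% in Ocn-EV and from 58.3% to 79.6% in Prx1-EV, and brought Timp3 to the higher side in Ocn-EV. These comparisons share the All-EV library, so neither is independent of the other. The median log2 ratio of the 10 genes was 0.11 in Ocn-EV and −0.16 in Prx1-EV, against −0.02 and 0.00038 over all tested genes. The medians were −1.84 and −1.70 for the 7 proteases, values that are those of Mmp12, since Mmp2, Mmp14 and Mmp19 stood above All-EV and Mmp8, Mmp9 and Mmp13 further below. They were 0.68 and 0.56 for the 3 inhibitors, of which Timp1 stood lower in Prx1-EV.

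**Figure D3:**
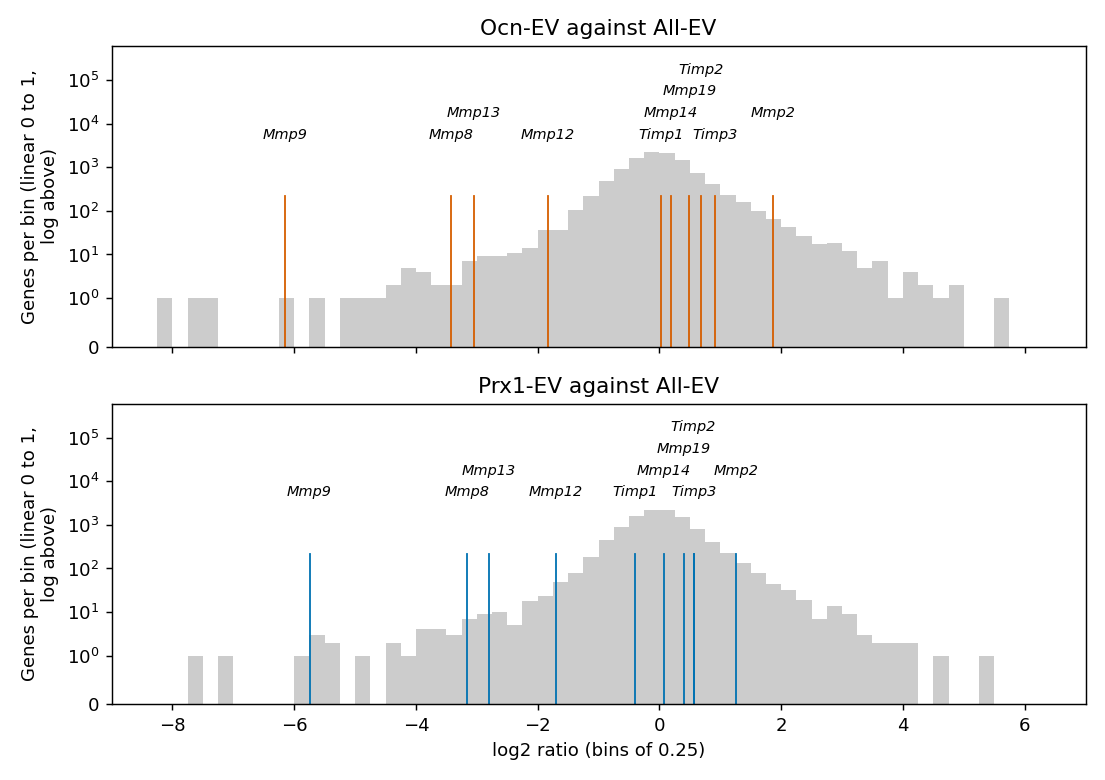
Number of tested genes per bin of log2 ratio (grey bars, 11067 genes; vertical axis logarithmic above 1) with the 10 genes marked as lines, for each comparison with All-EV. Mmp8, Mmp9, Mmp12 and Mmp13 lie in the thin lower tail, while Mmp14, Mmp19 and the inhibitors lie within 2-fold of All-EV. In Ocn-EV, 793 tested genes had a higher ratio than Timp3.

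Between the Ocn-EV and Prx1-EV cultures none of the 10 genes differed by 2-fold, as was true of all but 0.515% of tested genes (0.325% higher and 0.190% lower in Ocn-EV). Ratios ran from −0.40 for Mmp9 to 0.61 for Mmp2. Mmp2 was 1.53-fold higher in Ocn-EV (log2 0.61, 0.51 to 0.72), Timp1 1.34-fold higher (0.42, 0.31 to 0.53) and Timp3 1.27-fold higher (0.34, 0.29 to 0.40). Mmp8, Mmp12 and Mmp13 were slightly lower in Ocn-EV, at −0.27 (−0.40 to −0.14), −0.13 (−0.15 to −0.12) and −0.24 (−0.32 to −0.16). The intervals of Mmp9 (−1.04 to 0.20) and Mmp19 (−0.09 to 0.27) hold 0. At 38 and 60 reads, the Mmp9 interval leaves room for a 2-fold difference.

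Levels of different genes can be compared once divided by transcript length. Per kb of the longest annotated transcript, the order in All-EV was Mmp12, Mmp13, Mmp8, Timp1, Timp2, Mmp9, Mmp14, Timp3, Mmp2 and Mmp19. Timp1 and Timp2 (1584 and 1465 per kb) and Mmp9 and Mmp14 (902 and 889) were neighbours whose counting intervals overlap. In Ocn-EV, Mmp12 was followed by Timp2, Timp1 and Timp3, and Mmp9 came last at 12.4 per kb. In Prx1-EV the order began with Mmp12, Timp2, Timp1 and Mmp13 and again ended with Mmp9, at 16.5 per kb, and the intervals of Mmp14 and Timp3 (936 and 921) overlap. The order depends on the length used. With median transcript lengths Mmp14 came directly after Mmp12 in both Ocn-EV and Prx1-EV, while Mmp12 stayed first in every culture and Mmp9 last in these 2.

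Added up per kb, the 7 proteases stood at 77090 in the control, 20867 in Ocn-EV and 22571 in Prx1-EV, and the 3 inhibitors at 3667, 5135 and 4285. The protease sum was 21.0 times the inhibitor sum in the control, 4.06 times in Ocn-EV and 5.27 times in Prx1-EV. Mmp12 alone made 83.0%, 85.7% and 87.0% of the protease sum. Its longest transcript, at 4474 bases, is a retained-intron model, and its longest coding one has 3607 bases. With the longest coding transcript of each gene the ratios were 25.2, 4.90 and 6.37, and with median transcript lengths 39.1, 7.51 and 9.60. With Mmp12 left out they were 3.58, 0.579 and 0.684 (3.44, 0.894 and 0.965 with median lengths). The other 6 proteases together thus exceeded the inhibitors in All-EV and stayed below them in the other cultures, narrowly so with median lengths. Metalloproteinases beyond the 7 were not added in this setting, so this holds for these 6 only.

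Shares within those 6 proteases are given first for the longest transcripts. Mmp13 held 56.1% and Mmp8 28.2% of their per-kb sum in All-EV, with Mmp14 at 6.78% and Mmp2 at 1.18%. In Ocn-EV, Mmp14 led with 34.0%, ahead of Mmp13, and Mmp2 held 19.0%. In Prx1-EV, Mmp13 held 36.0%, Mmp14 32.0% and Mmp2 12.6%. With median lengths Mmp13 still led in All-EV, at 38.8%, with Mmp8 at 19.5% and Mmp14 at 19.4%, and Mmp14 led with 56.5% in Ocn-EV and 57.5% in Prx1-EV, where Mmp13 held 12.0% and 15.6%. Among the inhibitors, Timp1 held 43.2% in All-EV against 31.4% in Ocn-EV and 28.1% in Prx1-EV, and Timp2 39.9%, 45.8% and 50.4%. With median lengths Timp1 held 29.5%, 19.9% and 17.7%, and Timp2 led in every culture. The per-kb level of Mmp9 was 0.570 times that of Timp1 in the control, 0.00769 times in Ocn-EV and 0.0137 times in Prx1-EV. With median lengths these ratios were 2.22, 0.0299 and 0.0532, so which of the pair was higher in All-EV depends on the length. For the genes of the Mmp2 activation complex, Mmp14 stood at 5.74 times Mmp2 per kb in the control, 1.79 times in Ocn-EV and 2.53 times in Prx1-EV, and Timp2 at 9.46, 4.15 and 5.84 times Mmp2. With median lengths the values were 7.81, 2.43 and 3.44 for Mmp14 and 5.18, 2.28 and 3.20 for Timp2. These are transcript levels and do not measure protein or enzyme activity.

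**Figure D4:**
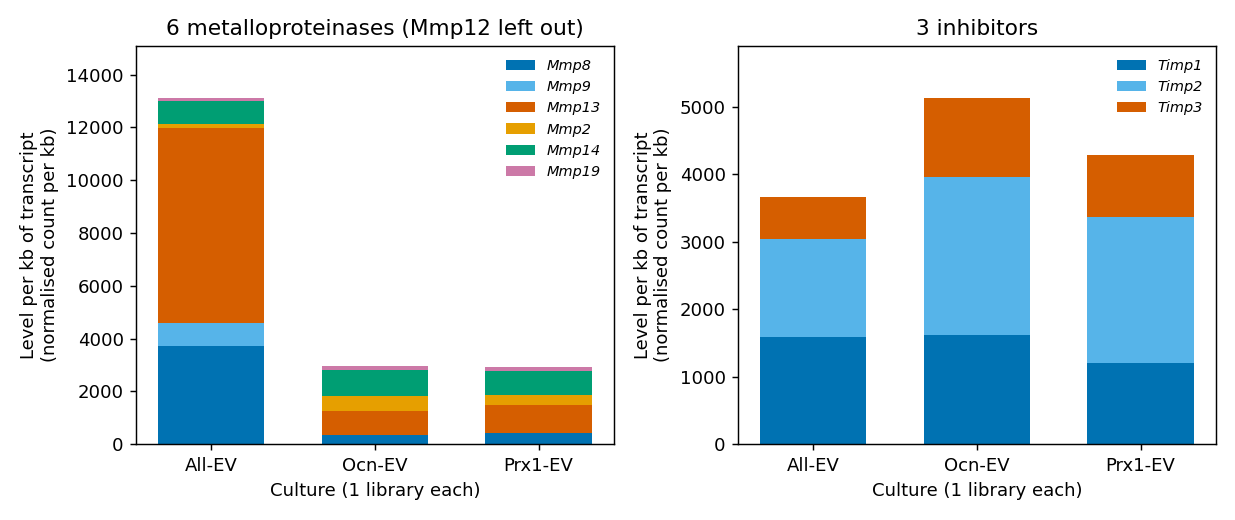
Level per kb of longest transcript, stacked by gene, for 6 proteases without Mmp12 (left) and the 3 inhibitors (right), 1 bar per culture. The protease stack is tallest in All-EV, where Mmp13 and Mmp8 make up most of it, and the inhibitor stack is tallest in Ocn-EV.

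Mmp8, Mmp12 and Mmp13 lie in a cluster of 10 metalloproteinase genes on chromosome 9 (chr9:7272514-7699585, 427 kb). Of these 10, 5 had a mean level of at least 50, and each had a level in All-EV above those in Ocn-EV and Prx1-EV. Beside the 3 genes above they were Mmp10, a stromelysin that can activate other metalloproteinases, at 184 in the control, 83.9 in Ocn-EV and 99.5 in Prx1-EV, and Mmp27 at 1155, 736 and 802. The log2 ratios to All-EV were −1.13 (−1.54 to −0.74) and −0.88 (−1.25 to −0.54) for Mmp10 and −0.65 (−0.79 to −0.51) and −0.53 (−0.66 to −0.40) for Mmp27. The sizes thus differed along the cluster, and Mmp27, the metalloproteinase next to Mmp8, had log2 ratios far nearer to 0 than those of Mmp8. The other 5 genes were near or at 0, with Mmp3 at 7, 0 and 3 reads, Mmp1a at 4, 0 and 0, Mmp1b at 2, 2 and 0, and Mmp7 and Mmp20 at 0 in all. Mmp9, with the lowest ratios, lies outside the cluster on chromosome 2.

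**Figure D5:**
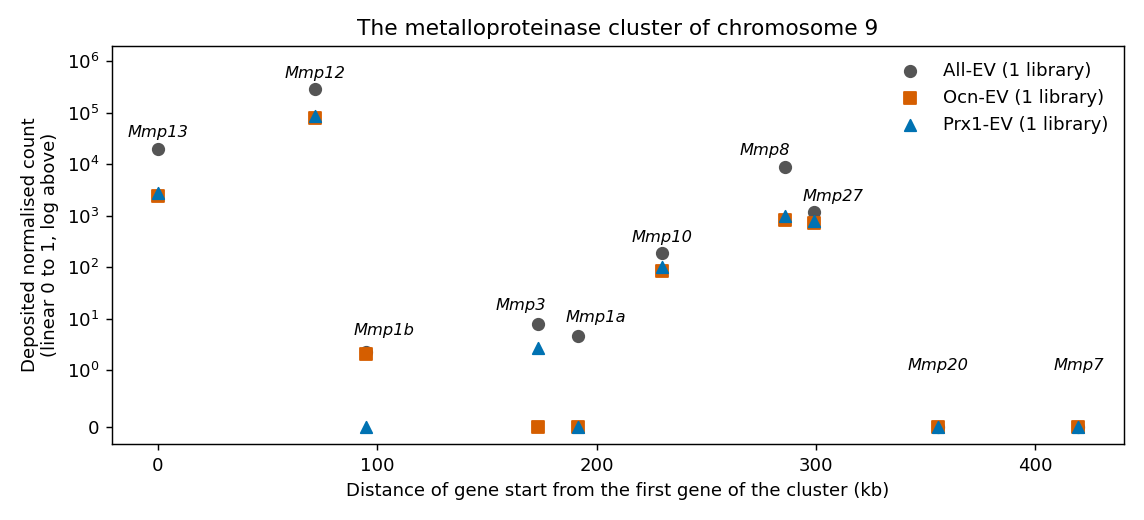
Deposited normalised count (axis linear up to 1 and logarithmic above) of the 10 metalloproteinase genes of the chromosome 9 cluster against the distance of their start from the first gene, for the 3 cultures. The 5 genes above a level of 50 all show the All-EV point on top, with the widest gaps at Mmp8 and Mmp13.

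For this list and those that follow, the shares of all tested genes past 2-fold serve as background. In Ocn-EV against All-EV these were 6.27% higher and 4.20% lower, and in Prx1-EV 5.12% and 3.66%. Among 16 further metalloproteinases, 4 had a mean level of at least 50. Of these, 2 were at least 2-fold higher in both Ocn-EV and Prx1-EV than in All-EV. They were Mmp17, a membrane-anchored enzyme, at 46.4 in the control, 181 in Ocn-EV and 124 in Prx1-EV, and Mmp23 at 91.7, 334 and 236. Mmp17, below 50 in All-EV, passed the filter through Ocn-EV and Prx1-EV, where it was high. In Ocn-EV, 1 (Mmp10) was at least 2-fold lower, and in Prx1-EV none was. Of 5 further inhibitors, Timp4, Reck, A2m, Pzp and Tfpi2, none reached a mean level of 50. Reck, a membrane-anchored inhibitor of Mmp9, Mmp2 and Mmp14, had 35, 64 and 41 reads. Adding these metalloproteinases and Timp4 to the per-kb sums gave ratios of 21.2, 4.21 and 5.43.

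Proteases that activate metalloproteinase proenzymes come next. Of 8 listed, 4 were tested, and 1 of these passed 2-fold, on the higher side in both cultures. That gene, the proprotein convertase Pcsk6, stood at 26.0 in the control, 121 in Ocn-EV and 98.6 in Prx1-EV. Below 50 in All-EV, Pcsk6 passed the filter through Ocn-EV and Prx1-EV, where it was high. Pcsk7, another convertase, stood at 238, 460 and 437, with log2 ratios of 0.95 (0.71 to 1.20) and 0.88 (0.64 to 1.12), just short of 2-fold. Furin, the convertase that cuts the Mmp14 propeptide, stood at 4338, 4134 and 4847. The urokinase gene Plau, whose product makes plasmin, stood at 6761, 5459 and 6638, while Plg, the plasmin precursor itself, had 0 reads.

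Of 7 tested surface partners and clearance receptors, 2 were at least 2-fold higher and 1 was at least 2-fold lower in Ocn-EV than in All-EV, and 1 was higher in Prx1-EV. Thbs1, a matricellular protein that binds metalloproteinases, had log2 ratios of 2.26 (2.22 to 2.29) and 1.90 (1.87 to 1.94). Thbs2, which takes part in the uptake of Mmp2 by cells, had 1.69 (1.54 to 1.85) and 0.59 (0.42 to 0.76), and was 2.15-fold higher in Ocn-EV than in Prx1-EV. The integrin Itgb3 was the lower one, at −1.05 (−1.17 to −0.92) for Ocn-EV and −0.83 (−0.95 to −0.72) for Prx1-EV. Lrp1, an endocytic receptor that clears Mmp13 and other proteases, was abundant in all cultures, at 69055, 93172 and 93351.

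Tested genes of related protease families showed higher levels than in All-EV or little difference. Of 7 tested ADAMTS genes, 4 were at least 2-fold higher in Ocn-EV (6.27% of all tested genes) and 3 in Prx1-EV (5.12%). No ADAMTS gene tested was 2-fold lower, and the median log2 ratios were 1.04 and 0.93. Adamts15 of that list, below the filter, went the other way, at 15 reads in the control, 6 in Ocn-EV and 2 in Prx1-EV. Adamts12 stood at 40.7 in the control, 315 in Ocn-EV and 305 in Prx1-EV, the aggrecanase Adamts5 at 19.2, 107 and 68.0, Adamts4 at 39.6, 121 and 120, and the procollagen protease Adamts2 at 179, 369 and 304. Adamts12, Adamts5 and Adamts4 were below 50 in All-EV and passed the filter through Ocn-EV and Prx1-EV, where they were high. The filter thus favours genes on the higher side in such a short list, and the counts describe it only. Of 8 ADAM genes, 1 was at least 2-fold higher in Ocn-EV (Adam33) and 2 in Prx1-EV (Adam33 and Adam19), with medians of 0.25 and 0.23. Adam33, at 29.4 in All-EV, passed the filter in the same way.

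Substrates of these enzymes stood on both sides. Of 7 tested, 5 were at least 2-fold higher in Ocn-EV and 3 in Prx1-EV, and 1 was lower in each. Col1a2 and Col3a1, which encode fibrillar collagens cut by the collagenases, had log2 ratios of 2.47 and 2.51 in Ocn-EV and 1.86 and 1.79 in Prx1-EV. The lower gene was Spp1, which encodes osteopontin, a substrate of Mmp9, at −2.52 and −2.48. Of 11 tested genes for transcription factors known to act on metalloproteinase promoters, none reached 2-fold in either comparison. Jun stood at 0.54 and 0.60 against All-EV, Junb at −0.40 and −0.58, Fosl2 at −0.39 and −0.51, and Ets1 at 0.94 and 0.71.

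The genes whose pair of ratios to All-EV lay nearest to that of a family member, by Euclidean distance on the log2 scale over the 3 libraries and 10691 genes, were found for each member. Nearest to Mmp9 were the myeloid receptor gene Tarm1 (distance 0.96) and the antiprotease gene Slpi (1.29), so no gene had ratios close to those of Mmp9. Mmp8 had complement factor Cfb (0.18) and arginase Arg1 (0.38), and Mmp13 had Stx11 (0.05) and Esam (0.11). Nearest to Mmp12 were Zfp97 (0.05) and Eps8 (0.06), to Mmp2 the collagen chaperone gene Fkbp10 (0.08) and Lbp (0.08), and to Timp3 Pfkfb4 and Itga3 (both 0.02). Mmp14, Mmp19, Timp1 and Timp2, whose ratios to All-EV lay nearer to 0 than those of the other members, had neighbours at a distance of at most 0.0131. With 3 libraries such likeness is a description only.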

How the data were processed

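Messenger RNA was sequenced from 3 stromal cell cultures, 1 library per group. Libraries used 100 ng of RNA and paired reads of 150 bases, per the labels. Per the submitters' processing notes, the tools were HISAT2 2.2.1 and featureCounts 2.0.3 on the build mm10, with Trimmomatic 0.38.1, FastQC 0.74 and, under the version given there, DESeq2 2.11.40.8. Order, settings and use of strand are not given in the sources used here.

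The deposited table holds a signal value per gene and library, read counts that the authors divided by a size factor. All values (100%, tolerance 1e-06) were whole multiples of the value of 1 read (1.13 for All-EV, 1.04 for Ocn-EV and 0.872 for Prx1-EV), which gave the reads. Symbols matched 25275 of 27179 identifiers in a RefSeq table of GRCm38.p6. Transcript lengths came from GENCODE vM21, for 97.6% of the 11067 tested genes (mean level of at least 50).

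With 1 library per group there was no test between conditions. Ratios used a pseudocount of 1, which pulls low genes toward 0, and Clopper-Pearson intervals (SciPy 1.17.1). An exact binomial test on the reads, which compares libraries and not conditions, called 7177 genes for Ocn-EV and 7119 for Prx1-EV, each set against the control, and 2872 between Ocn-EV and Prx1-EV, after Benjamini-Hochberg adjustment. Reads carry no molecular identifiers. The calculations were tested on simulated data. The members and lists were chosen with earlier results of these data known. Genes of the other lists were named when among the 4 tested members farthest from 0 against All-EV, and the 2 nearest genes by ratio were named for each member. Reck, Lcn2, Plg, the untested cluster genes and single markers were picked after their values were seen. Alternatives were equal totals, edgeR 4.0.16 TMM factors, other pseudocounts, filters, fold thresholds and transcript lengths.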

Additional observations from a re-analysis of the deposited data

How the results depend on the processing

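No replicates exist, so differences between single cultures cannot be separated from culture-to-culture variation, and depth limits Mmp9 most. The 4 genes at least 2-fold lower against All-EV (Mmp8, Mmp9, Mmp12 and Mmp13) were the same under equal totals, TMM scaling, pseudocounts of 0.5 and 10, thresholds of 1.5-fold and 3-fold, no filter and a filter of 200. The number higher in Ocn-EV than in All-EV was 1 as given, 2 with equal totals (Mmp2 and Timp3) and 3 at 1.5-fold. In Prx1-EV it was 1, and 0 at 3-fold. Between Ocn-EV and Prx1-EV, 1 gene (Mmp2) passed 1.5-fold. The exact binomial test on reads, added after the data were seen, called 5 genes higher and 4 lower in Ocn-EV than in All-EV, 4 higher and 5 lower in Prx1-EV (the fifth lower one is Timp1), and 5 higher and 3 lower in Ocn-EV than in Prx1-EV, where it called 64.9%, 64.3% and 26.0% of all tested genes. No gene's ratio changed sign under scaling or pseudocount. Equal totals raised the share of higher genes among those 2-fold apart from 59.9% to 81.8% in Ocn-EV and from 58.3% to 79.6% in Prx1-EV. The ratio of protease to inhibitor sums per kb, 21.0 (All-EV), 4.06 (Ocn-EV) and 5.27 (Prx1-EV), became 39.1, 7.51 and 9.60 with median lengths, 25.2, 4.90 and 6.37 with coding lengths, 33.0, 5.67 and 7.18 without length, 4.21 and 5.43 in the latter pair with all listed genes, and 3.58, 0.579 and 0.684 without Mmp12, by far the largest term. The coding-length and no-Mmp12 settings, and median lengths for shares, order and pairs, were added after the data were seen. All-EV kept the highest ratio throughout. No paired analysis was possible because each group has 1 library.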
